A study of Homo sapiens with 6 samples.

Results

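The enzymes that make serine and move its carbon through folate were followed in SaOS-2 cells with and without induction of the CDK inhibitor p21. The members are the 10 genes PHGDH, PSAT1, PSPH, SHMT1, SHMT2, MTHFD1, MTHFD2, MTHFD1L, MTHFD2L and ALDH1L2, picked by symbol from the 23228 gene rows of the deposited table, and all 10 were found. SaOS-2 is an osteosarcoma line that lacks RB and p53, and the line used here also carried a vector from which doxycycline switches on p21. RNA was sequenced from 3 libraries of cells left untreated (p21 OFF) and 3 libraries of cells given 1 μg/ml doxycycline for 24 h (p21 ON), all grown in DMEM with serum, a medium that supplies serine, glycine and folic acid. Both groups carried the vector, and no library of cells given doxycycline without it was analysed here, and what the drug does by itself cannot be told apart from what p21 does.

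Cells build serine from the glycolytic intermediate 3-phosphoglycerate in a short chain of steps, oxidation by PHGDH, transamination by PSAT1 and dephosphorylation by PSPH. Serine hydroxymethyltransferases (SHMT) then pass a carbon from serine to tetrahydrofolate and release glycine. The folate-bound carbon is processed by parallel sets of enzymes in mitochondria (SHMT2, MTHFD2, MTHFD2L, MTHFD1L and ALDH1L2) and in the cytosol (SHMT1 and MTHFD1). In proliferating cells the mitochondrial arm is known to export formate, from which the cytosolic arm feeds purine and thymidylate synthesis. Many genes of serine synthesis and of the mitochondrial arm are known targets of the stress transcription factor ATF4.

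The libraries held 12795490 to 21975045 reads on genes, the smallest and the largest both p21 OFF. The smallest, p21 OFF replicate 1, differed most from its group. The chi-square between replicates, averaged over the genes tested, was 8.48 and 9.28 for its pairs with replicates 2 and 3. It was 2.71 to 3.97 for the other pairs within a group. CDKN1A, which encodes p21, averaged 1266 ± 84.5 normalized counts before and 43690 ± 3138 after induction (SD, n = 3 each), so the libraries matched their labels. Normalized counts are reads per gene divided by the library's size factor. Markers of the osteoblast lineage summed to 51350 to 53780 normalized counts in p21 OFF and 52240 to 56420 in p21 ON libraries, led by ALPL, with SPP1 near 0 and IBSP called lower (log2 change -0.38). The 6 markers of blood and endothelial cells summed to 15.5 to 30.1 and 15.8 to 32.6, with HBB at 0. Genes were called higher or lower when the adjusted p-value (limma, Benjamini-Hochberg over the 13255 genes whose mean reached 10 normalized counts) was under 0.05. In this comparison 10.5% of all genes tested were called higher and 12.7% lower, 23.2% in all.

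The start regions of the cytosolic pair, SHMT1 and MTHFD1, are shown because these were the members that lay wholly above their p21 OFF levels after induction. Each window runs from 250 bases before to 50 bases after the gene's start, 5′ to 3′ on the gene's strand (RefSeq, GRCh38.p14; MTHFD1 plus strand, SHMT1 minus strand), with an E-box in capitals.
MTHFD1, chr14:64388103-64388402: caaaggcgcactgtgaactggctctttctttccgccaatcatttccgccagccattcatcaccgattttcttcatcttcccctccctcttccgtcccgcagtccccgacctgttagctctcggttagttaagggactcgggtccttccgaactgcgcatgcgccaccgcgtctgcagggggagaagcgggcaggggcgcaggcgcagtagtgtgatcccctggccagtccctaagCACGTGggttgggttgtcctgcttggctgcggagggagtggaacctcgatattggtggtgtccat
SHMT1, chr17:18363501-18363800: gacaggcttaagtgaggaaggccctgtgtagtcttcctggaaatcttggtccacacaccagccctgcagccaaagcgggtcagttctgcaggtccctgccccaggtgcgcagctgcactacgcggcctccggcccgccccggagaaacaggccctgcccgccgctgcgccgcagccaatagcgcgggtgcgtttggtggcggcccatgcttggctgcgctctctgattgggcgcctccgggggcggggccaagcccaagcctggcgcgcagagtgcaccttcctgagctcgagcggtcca
The MTHFD1 window holds an E-box (CACGTG, a motif bound by MYC and related factors), whose first base lies at position -15 from the start. An E-box was present in 7.26% of 35116 windows of the same length. The reference table held windows for 5 members (PHGDH, PSAT1, MTHFD2, SHMT1 and MTHFD1). On either strand, none of the 5 had the C/EBP-ATF core of ATF4 (TGATGNAA, in 3.62% of all windows), an E2F site (TTTCCCGC, TTTGGCGC, TTTCGCGC or TTTGCCGC, in 3.31%) or the CHR letters (TTTGAA or TTCGAA, in 16.4%). This describes the letters in these windows only.

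The 10 transcripts differed widely in level. Per kilobase of canonical transcript, PHGDH was the most abundant in p21 OFF cells at 1760 ± 78.5 normalized counts per kb (SD, n = 3), followed by SHMT2 at 1590 ± 66.7. MTHFD1 had 523.5 ± 9.04, MTHFD2 399.6 ± 25.3, PSAT1 389.3 ± 26.7, SHMT1 329.7 ± 19.8 and MTHFD1L 294.6 ± 4.45 normalized counts per kb. PSPH, the last step of serine synthesis, had 123.2 ± 12.5. MTHFD2L and ALDH1L2 were weak, with 18.8 ± 5.0 and 3.49 ± 1.23 normalized counts per kb. Among 11294 genes with a mean of at least 10 and a known length, PHGDH lay at percentile 95 and ALDH1L2 at percentile 2.37. MTHFD2 and PSAT1 overlapped in p21 OFF cells, and the other neighbours in this order did not. In p21 ON cells the order was the same except that PSAT1 (421.2 ± 56.7) stood before MTHFD2 (376.4 ± 24.0), and MTHFD2 overlapped both PSAT1 and SHMT1 (369.3 ± 25.5).

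After p21 induction most of these transcripts stayed close to their p21 OFF levels. MTHFD1 was called higher and no member was called lower, that is 1 of 10 against 10.5% and 12.7% of all genes. The median log2 fold change of the 10 was 0.07, beside 0.006 over all genes tested, and 6 members had a positive and 4 a negative value. For 6 of the 10 the size of the log2 fold change was below 0.152, the median size over all genes. At an unadjusted p under 0.05 (limma) there were 3 of 10 members, MTHFD1, SHMT1 and ALDH1L2, all with positive values. Such values were common, at 4881 of the 13255 genes tested. In bulk RNA a change in the share of cells that express a gene cannot be told apart from a change in RNA per cell.

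**Figure D1:**
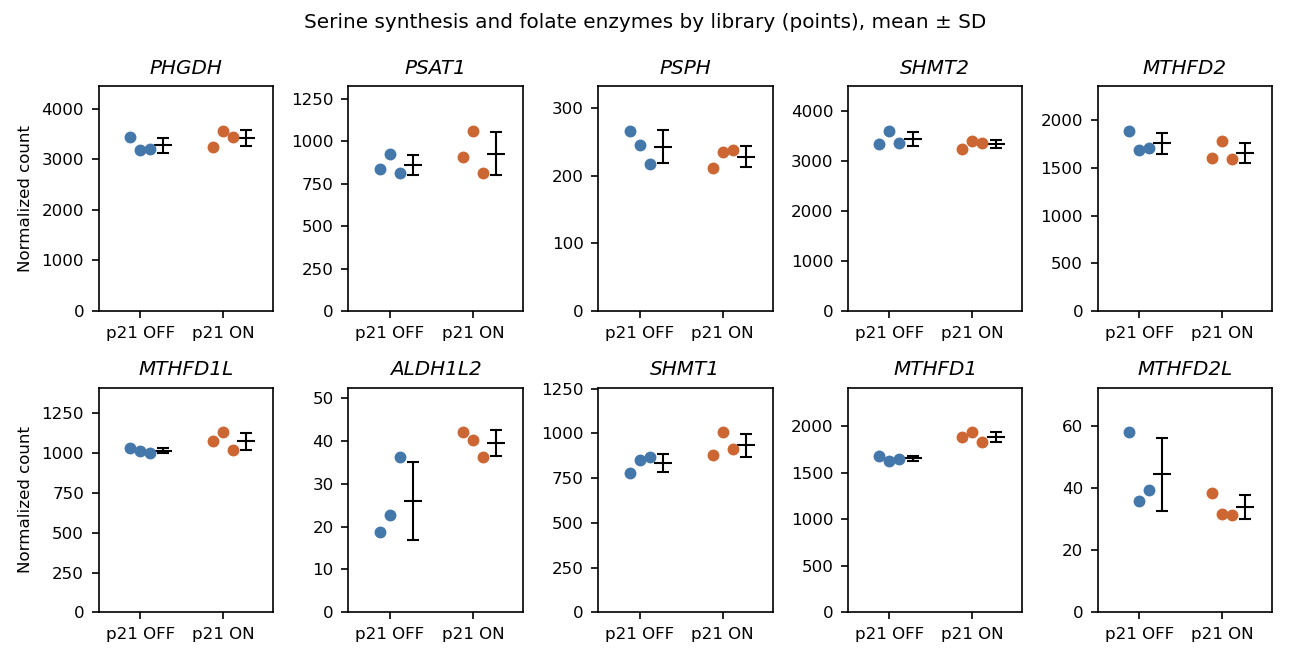
Normalized counts (y axis, from 0, own scale in each panel) of the 10 enzymes in each library (points), with mean ± SD (n = 3) beside them, p21 OFF in blue and p21 ON in orange. Only for SHMT1 and MTHFD1 do all p21 ON points lie above all p21 OFF points.

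MTHFD1, the trifunctional enzyme that interconverts the folate-bound carbon units in the cytosol, lies on chromosome 14 of GRCh37 from 64854749 to 64930175. It had 1683, 1628 and 1642 normalized counts with p21 OFF and 1884, 1930 and 1823 with p21 ON. Every p21 ON library was above every p21 OFF library. The means were 1651 ± 28.5 and 1879 ± 53.9 (SD, n = 3 each), a 1.14-fold difference. The log2 fold change was 0.19 (SE, standard error, 0.06, 95% interval 0.06 to 0.31, adjusted p = 0.0307, limma), and the exact two-sided permutation test gave p = 0.1, the smallest that 3 libraries against 3 allow. The call was made by edgeR and DESeq2 too, with adjusted p-values of 0.0308 and 0.0287. It was lost without p21 OFF replicate 2 (adjusted p = 0.0943) or 3 (0.0727) and without p21 ON replicate 1 (0.113), 2 (0.0956) or 3 (0.0514), all from limma, while the log2 fold change stayed between 0.17 and 0.21. MTHFD1 is in the study's low-stringency G1/S list.

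SHMT1, the cytosolic serine hydroxymethyltransferase, lies on chromosome 17 from 18231174 to 18266877. It had 776, 853 and 870 normalized counts with p21 OFF and 881, 1005 and 913 with p21 ON. The groups did not overlap, with the closest pair only slightly apart. The log2 fold change of 0.16 (95% interval 0.01 to 0.32) did not pass the test (adjusted p = 0.114, limma), but it did under scaling by library size alone, where the value was 0.21 (adjusted p = 0.0446). It was 0.11 without p21 OFF replicate 1 or without p21 ON replicate 2. Groups that do not overlap were common in this comparison, at 40.4% of all genes tested, 19.1% wholly above and 21.3% wholly below, and among the members there were 2 above and 0 below.

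None of the abundant mitochondrial enzymes was called, and the fitted values of SHMT2 and MTHFD2 were negative and that of MTHFD1L positive, each with an interval that includes 0. SHMT2, placed on chromosome 12 between 57623356 and 57628718, had 3332, 3596 and 3364 normalized counts in p21 OFF and 3242, 3395 and 3351 in p21 ON libraries. The groups overlapped, and the log2 fold change was -0.04 (95% interval -0.17 to 0.08, adjusted p = 0.628, limma), or 0.001 under scaling by library size alone. SHMT2 is in the study's low-stringency G2/M list.

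MTHFD2, the mitochondrial methylenetetrahydrofolate dehydrogenase and cyclohydrolase, lies on chromosome 2 from 74413299 to 74444692. It had 1888, 1686 and 1705 normalized counts with p21 OFF and 1602, 1779 and 1591 with p21 ON. The ranges overlapped through p21 ON replicate 2, and the log2 fold change was -0.09 (95% interval -0.23 to 0.06, adjusted p = 0.375, limma). MTHFD1L, which releases formate in mitochondria and lies on chromosome 6 between 151186815 and 151423023, had 1034, 1012 and 1004 normalized counts with p21 OFF and 1075, 1130 and 1022 with p21 ON. Its log2 fold change was 0.08 (95% interval -0.06 to 0.22, adjusted p = 0.396, limma). With 1 library left out, SHMT2 ranged from -0.06 to -0.008 (without p21 OFF replicate 2), MTHFD2 from -0.14 (without p21 ON replicate 2) to -0.035 (without p21 OFF replicate 1) and MTHFD1L from 0.04 (without p21 ON replicate 2) to 0.12. For these 3 enzymes the intervals leave room for changes of at most 0.23 on the log2 scale in either direction.

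ALDH1L2, the mitochondrial formyltetrahydrofolate dehydrogenase, lies on chromosome 12 from 105413562 to 105501421 and had the largest fitted difference of the 10. It had 18.8, 22.7 and 36.2 normalized counts in p21 OFF libraries, from 15, 29 and 49 reads. The p21 ON libraries had 41.9, 40.2 and 36.1, from 36, 33 and 38 reads. The p21 ON libraries were close together, and p21 OFF replicate 3 reached the lowest of them. The log2 fold change was 0.64 (SE 0.24, 95% interval 0.14 to 1.13, adjusted p = 0.0592, limma). Without p21 OFF replicate 3 it was 0.90 and passed the test (adjusted p = 0.0112), and without p21 OFF replicate 1 it was 0.44 (adjusted p = 0.181). On the reads, edgeR gave a smaller log2 fold change of 0.545 (adjusted p = 0.102) and DESeq2 one of 0.569 (adjusted p = 0.194). Scaling by library size alone gave an adjusted p of 0.0430.

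MTHFD2L, the weakly expressed mitochondrial paralog of MTHFD2 encoded on chromosome 4 between 74979891 and 75168816, had 57.8, 35.9 and 39.2 normalized counts with p21 OFF and 38.4, 31.7 and 31.4 with p21 ON. The p21 OFF group was spread by replicate 1, and the groups overlapped. The log2 fold change was -0.36 (95% interval -0.80 to 0.09, adjusted p = 0.231, limma). It was -0.15 without p21 OFF replicate 1 and -0.49 without replicate 2, and the counts rested on 26 to 53 reads per library.

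Serine synthesis gave no call. PHGDH, the first and committed enzyme, encoded on chromosome 1 between 120191034 and 120286841, had 3452, 3193 and 3206 normalized counts with p21 OFF and 3250, 3564 and 3446 with p21 ON. The groups overlapped, with a log2 change of 0.06 (95% interval -0.07 to 0.19, adjusted p = 0.513, limma). PSAT1, the aminotransferase encoded on chromosome 9 between 80912041 and 80945009, had 839, 925 and 812 normalized counts with p21 OFF and 910, 1062 and 814 with p21 ON. The log2 fold change of 0.11 (95% interval -0.08 to 0.29, adjusted p = 0.394, limma) rested on single libraries, since it was 0.006 without p21 ON replicate 2 and 0.20 without p21 ON replicate 3. PSPH, the phosphatase on chromosome 7 from 56078744 to 56119297, ranged from 217 to 266 normalized counts with p21 OFF and from 211 to 239 with p21 ON. Its log2 fold change was -0.09 (95% interval -0.30 to 0.12, adjusted p = 0.556, limma), and with 1 library left out it lay between -0.17 (without p21 OFF replicate 3) and -0.02 (without p21 OFF replicate 1). The value of PHGDH was lowest, at 0.03, when p21 ON replicate 2 was left out, and highest, at 0.095, when replicate 1 of either group was.

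**Figure D2:**
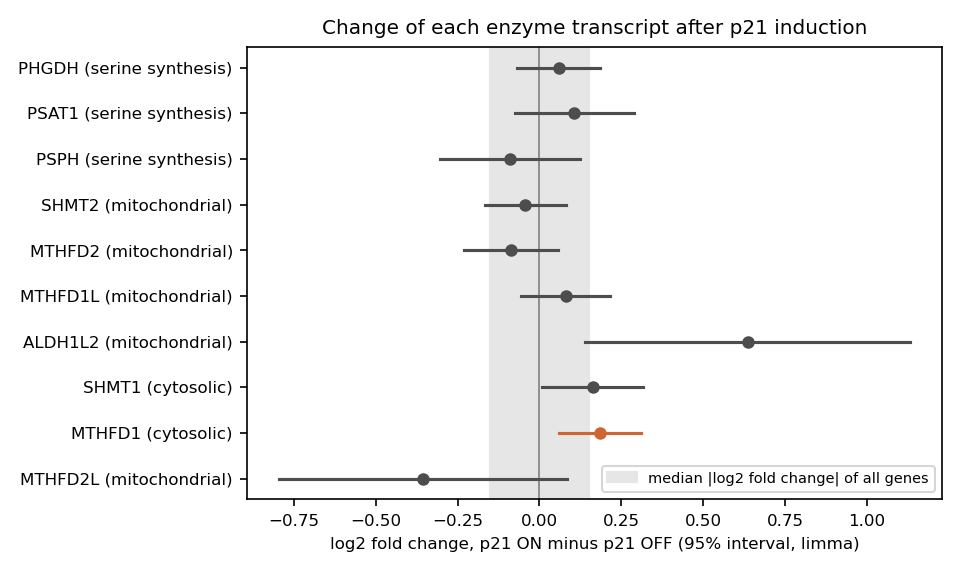
Log2 fold change of each enzyme (x axis, p21 ON minus p21 OFF) with its 95% interval from limma, and the grey band marking the median size over all genes, 0.152. MTHFD1 (orange) passed the test, and the intervals of 7 of the 10 members include 0.

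The mitochondrial and cytosolic enzymes were set against each other within each library, as the mean log2(normalized count + 1) of SHMT2, MTHFD2, MTHFD1L and ALDH1L2 minus that of SHMT1 and MTHFD1. Scaling between libraries all but cancels in this difference, and since the genes were chosen it is given without a test. With p21 OFF it was -0.93, -0.93 and -0.81, and with p21 ON -0.88, -0.94 and -0.94. The groups overlapped, with means of -0.89 ± 0.07 and -0.92 ± 0.03 (SD, n = 3 each) and a difference of -0.03. Without p21 OFF replicate 3 the difference was 0.01.

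ALDH1L2 weighs as much in the mean of logs as SHMT2, while it made up 0.30 to 0.703% of the summed normalized counts of the 4 mitochondrial genes. With ALDH1L2 left out, the contrast was 0.71, 0.64 and 0.58 in p21 OFF and 0.46, 0.45 and 0.45 in p21 ON libraries. The groups then lay apart, and the difference was -0.19 on the log2 scale. The mean of the cytosolic pair alone was higher by 0.17 with p21 ON, while SHMT2, MTHFD2 and MTHFD1L had -0.04, -0.09 and 0.08. The separation thus reuses the SHMT1 and MTHFD1 values given above and is no further result. With ALDH1L2 the mitochondrial mean was higher by 0.15, with overlapping groups. Adding MTHFD2L to the 4 mitochondrial genes gave a contrast difference of -0.13, also with overlapping groups. The median in place of the mean gave -0.18, and leaving out SHMT1 and SHMT2 turned the sign to 0.02.

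**Figure D3:**
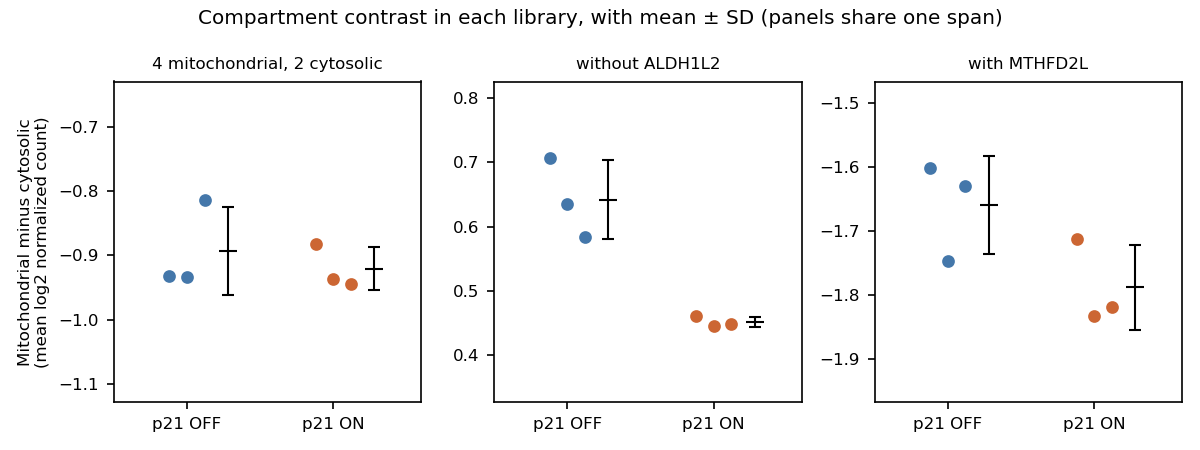
Mean log2(normalized count + 1) of mitochondrial minus cytosolic enzymes (y axis, each panel spanning 0.5) in each library (points), with mean ± SD (n = 3), for the genes of the rule, without ALDH1L2 and with MTHFD2L. The p21 ON points lie below the p21 OFF points in the middle panel and overlap them in the outer panels.

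The abundant enzymes were also set against each other in pairs. The ratio of SHMT2 to SHMT1 normalized counts was 4.29, 4.22 and 3.87 in p21 OFF and 3.68, 3.38 and 3.67 in p21 ON libraries. The ratio of MTHFD2 to MTHFD1 was 1.12, 1.04 and 1.04 and then 0.850, 0.922 and 0.873. The ratio of MTHFD1L to MTHFD1 was 0.614, 0.622 and 0.611 and then 0.571, 0.585 and 0.561. In each of the 3 ratios the p21 ON libraries lay below the p21 OFF libraries, and the ratios share MTHFD1 and were looked at after the member values, so they are a description without a test.

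Of 46 further genes of folate, purine, methionine and serine metabolism, 39 passed the filter on low values, and 4 were called higher and 6 lower (10.3% and 15.4%, beside 10.5% and 12.7% over all genes), with a median log2 fold change of -0.03. Leaving out p21 ON replicate 1 left 3 called lower.

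Of 6 tested genes of cytosolic folate use, 1 was lower and none higher. TYMS, the thymidylate synthase that consumes the carbon unit and oxidises the folate, had 980, 1055 and 1064 and then 909, 1004 and 995 normalized counts, a log2 change of -0.09 (adjusted p = 0.346, limma). ALDH1L1, the cytosolic counterpart of ALDH1L2, was far more abundant than ALDH1L2 at 530.3 ± 24.2 normalized counts per kb in p21 OFF cells (SD, n = 3). It fell by 0.20 on the log2 scale to 460.6 ± 27.4 normalized counts per kb (adjusted p = 0.0322, limma). This call was lost under scaling by library size alone (adjusted p = 0.0823) and without p21 OFF replicate 2 (0.0655) or 3 (0.117) or p21 ON replicate 1 (0.166) or 3 (0.108).

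Among 6 tested genes of folate transport and storage, GGH, the hydrolase that removes the glutamate tail of folates, was the single call. It had 737, 641 and 566 normalized counts with p21 OFF and 483, 497 and 403 with p21 ON, a log2 change of -0.49 (adjusted p = 0.0019, limma). SLC25A32, the mitochondrial folate carrier, had -0.21 (adjusted p = 0.0724), and the reduced folate carrier SLC19A1 had -0.17 (adjusted p = 0.162, both limma). SLC46A1 and FOLR1 went the other way without a call, with 0.34 (adjusted p = 0.106) and 0.19 (adjusted p = 0.1002, both limma). In this list 2 genes lay wholly above and 3 wholly below their p21 OFF values, beside 19.1% and 21.3% of all genes. None of 4 tested genes of glycine cleavage and other mitochondrial one-carbon steps was called by limma, none had an unadjusted p under 0.05, and the glycine decarboxylase GLDC was below the filter. In purine synthesis, which takes formyl groups from folate, 2 of 6 genes were lower, PFAS by -0.29 (adjusted p = 0.0127) and ADSL by -0.27 (adjusted p = 0.0111, both, limma). The folate-using enzymes of that pathway, GART and ATIC, had log2 fold changes of 0.07 and -0.05 and were not called. Without p21 ON replicate 1, PFAS and ADSL had adjusted p-values of 0.0611 and 0.0788, and without p21 OFF replicate 2 PFAS had 0.0689.

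In the methionine cycle and transsulfuration 2 of 7 tested genes were higher and 2 lower. CBS, which joins serine to homocysteine, had 2690, 2557 and 2552 normalized counts with p21 OFF and 3563, 3446 and 3505 with p21 ON. The groups were far apart beside their spread, with a log2 change of 0.43 (SE 0.06, adjusted p = 2.96e-05, limma). CTH, the next enzyme on the way to cysteine, rose by 0.41 (adjusted p = 0.000863). MAT2B and MAT2A, the subunits of the enzyme that makes S-adenosylmethionine, had log2 fold changes of -0.37 and -0.23 (adjusted p = 0.0014 and 0.00914, all, limma).

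Of 10 tested genes of serine transport and use, 2 were higher and none lower, beside 10.5% and 12.7% of all genes. The median log2 fold change of this list was 0.016. Of its genes 2 lay wholly above and 3 wholly below their p21 OFF values, beside 19.1% and 21.3% of all genes. SLC1A4, a transporter of serine and other neutral amino acids, had 814, 862 and 840 normalized counts with p21 OFF and 1324, 1382 and 1330 with p21 ON. The groups were again far apart, with a log2 change of 0.68 (SE 0.06, adjusted p = 2.84e-07, limma). SLC1A5, the glutamine and neutral amino acid transporter, rose by 0.20 (adjusted p = 0.0353), a call that was lost when p21 OFF replicate 3 (0.0519) or either of p21 ON replicates 2 (0.121) and 3 (0.157) was left out. SFXN1, which carries serine into mitochondria, had 1026 ± 35.2 and 1025 ± 66.4 normalized counts (SD, n = 3 each) in p21 OFF and p21 ON cells and was not called.

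**Figure D4:**
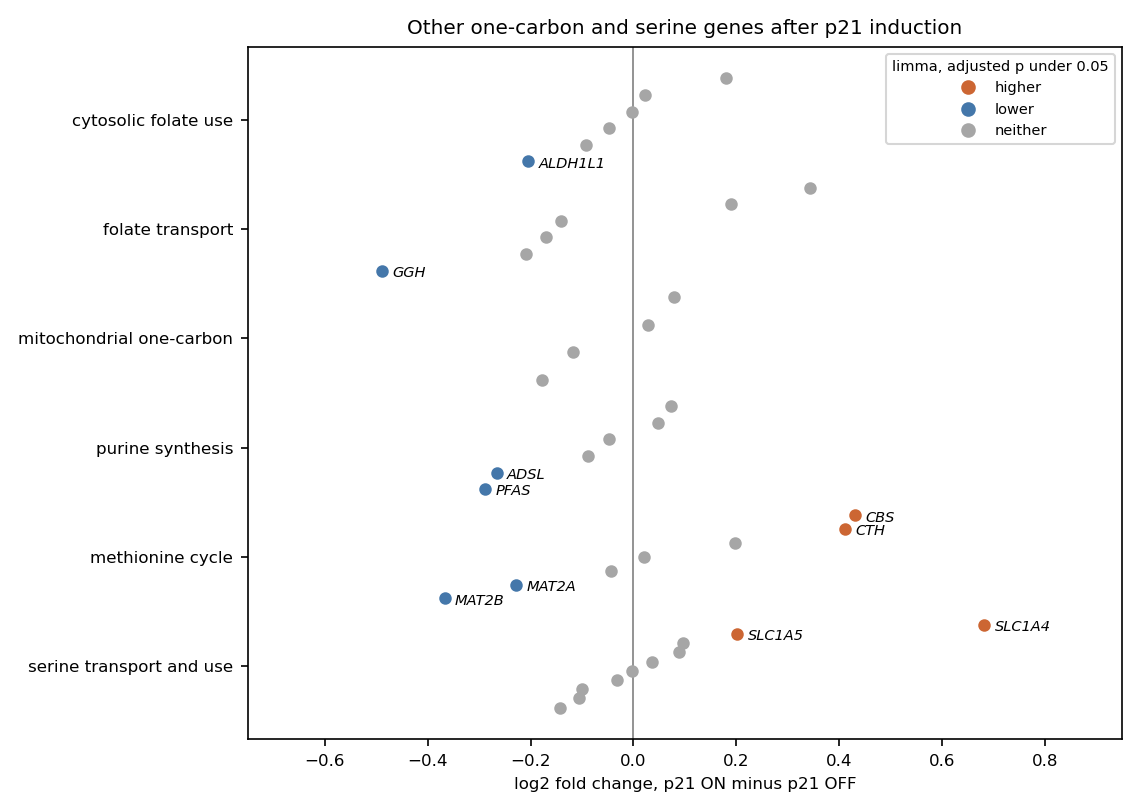
Log2 fold change (x axis, p21 ON minus p21 OFF) of the 39 tested genes of the other lists, 1 point per gene, grouped by list on the y axis and coloured by the limma call. The 4 genes called higher and the 6 called lower are named, from GGH at -0.49 to SLC1A4 at 0.68.

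ATF4 itself fell, from 4059, 3917 and 3429 normalized counts with p21 OFF to 2830, 3088 and 3062 with p21 ON. The groups did not overlap, and the log2 fold change was -0.34 (SE 0.07, adjusted p = 0.00171, limma). MYC had a log2 change of -0.10 (adjusted p = 0.237) and NFE2L2 of -0.05 (adjusted p = 0.598). The transcript level of ATF4 does not measure its protein, which is controlled mainly by translation.

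Exons of 6 members (SHMT1, SHMT2, MTHFD1, MTHFD2, MTHFD2L and ALDH1L2) overlap exons annotated on the opposite strand, among them ZBTB25 at MTHFD1 and SLC4A5 at MTHFD2. The strand setting of the counting is not given in the sources used here. Reads of such partners may therefore be included, or reads in the shared stretches may have been left out. The annotation also names 14 pseudogene copies of 5 members, 7 of them of MTHFD2 and 4 of PSAT1, and reads shared with these copies make those levels less certain.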

How the data were processed

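RNA of 6 libraries (3 p21 OFF and 3 p21 ON, grouped by sample title) was sequenced by the authors with a stranded mRNA kit, mapped to hg19 with STAR and counted on genes with HTSeq; tool versions are not given in the sources used here. The deposited table holds a signal per gene, the count divided by the DESeq2 size factor. In every library 100% of values were whole multiples of 1 step (tolerance 0.05), which returned the reads. The study calls the replicates biological without saying how the cultures were made. The p-values set each difference against the spread between these libraries, which may or may not include that between independent cultures.

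limma 3.58.1 (lmFit, eBayes with a trend) in R 4.3.3 took log2(normalized count + 1) of all 13255 genes whose mean reached 10, with Benjamini-Hochberg adjustment. Fold changes are given with that pseudocount, which shrinks those of weak genes (ALDH1L2 had 0.637, and 0.657 with a pseudocount of 0.1). The values of edgeR and DESeq2 for ALDH1L2 were smaller still, 0.545 and 0.569. Run on those reads, edgeR 4.0.16 called 1401 higher and 1647 lower genes, limma 1393 and 1681, and DESeq2 1.42.0 called 1073 and 1502. Scripts were tested on simulated data. The alternatives were these tools, library size and TMM scaling, pseudocounts of 0.1 and 10, no filter, a mean of at least 100, a replicate block and each library left out.

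Members and lists were chosen with earlier results of these data known. Named genes were the members, CDKN1A, the regulators, TYMS and up to 3 called genes per list and direction. SLC25A32, SLC19A1, GLDC, GART, ATIC and SFXN1 were named after their values were seen, for their roles. SLC46A1 and FOLR1 were also named after their values were seen, because they went the other way. In the mitochondrial list 1 gene was matched by its older symbol. Some genes of the cytosolic folate list are not reported here. Gene positions and canonical transcript lengths are from GENCODE release 44 on GRCh37, the build of hg19, and start regions from RefSeq on GRCh38.p14.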

Additional observations from a re-analysis of the deposited data

How the results depend on the processing

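Of 88 comparisons of a member's log2 fold change with an alternative over all libraries, 83 kept direction and side of the threshold. Library size scaling moved the median of all genes from 0.006 to 0.05, and 63.0% in place of 45.3% of calls were higher. The members moved up with it, MTHFD1 from 0.19 to 0.23 and SHMT2 to 0.001. Without any correction for that shift, 3 members were called higher (MTHFD1, SHMT1 and ALDH1L2) in place of 1. With each library left out, the members called higher numbered 0 to 1 and lower 0, the other pathway genes 3 to 4 higher and 3 to 6 lower, all genes 695 to 1486 higher and 887 to 1660 lower, and NFE2L2 ranged from -0.087 to 0.01, positive without p21 OFF replicate 1. The mitochondrial minus cytosolic difference of -0.03 was 0.024 without SHMT1 and SHMT2, -0.18 with the median, -0.13 with MTHFD2L, -0.19 without ALDH1L2, and -0.048 to 0.012 with a library left out. The cause of these shifts was not tested.

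Whether the replicate numbers pair the libraries is not stated in the sources used here. Deviations from the group means correlated at -0.172, -0.165 and -0.123 for same-numbered libraries and at 0.001 to 0.128 for differently numbered ones. Such correlations cannot show how the cultures were made. The main fit had no replicate block, and the block is given here only. With it 1407 genes were higher and 1513 lower, ALDH1L2 was called (0.64, adjusted p = 0.0398, limma), and MTHFD1 (adjusted p = 0.0806) and ALDH1L1 (0.0595) were not. The fewest reads lay behind ALDH1L2 (15 to 49 per library) and MTHFD2L (26 to 53).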
